A study of Mus musculus with 2 samples.

Results

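The cells described here were macrophages from the endosteal fraction of bone that carried C1q and MHC class II transcripts. They had few or no transcripts of Cd5l, Fcna and Spic, the markers of iron-recycling macrophages. They were chosen from raw UMI counts, a UMI being 1 tagged cDNA molecule. Barcodes entered with 500 genes and 1000 UMIs or more, provided that under 10% of the UMIs were mitochondrial. A kept cell belonged to the class if C1qa, C1qb and C1qc together reached 10 per 10000 UMIs, Cd5l, Fcna and Spic summed to at most 1 UMI, H2-Aa, H2-Ab1 and H2-Eb1 summed to at least 3 UMIs, and Cxcl12 was under 100 per 10000 UMIs. The rule found 854 of 17835 kept cells, 520 of 8445 in the chase library and 334 of 9390 in the pulse library.

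Both libraries came from Adipoq-CreERT2;Ai9 male mice, in which tamoxifen activates a Cre recombinase driven by the adiponectin gene and switches on the red protein tdTomato in adiponectin-expressing stromal cells and their progeny. Tamoxifen was given by gavage on 3 days at 8 weeks of age, and bone was harvested 4 weeks later for the chase library or 24 hours later for the pulse library. Femurs and tibias, flushed of diaphyseal marrow, were digested, and bright tdTomato cells of the endosteal fraction were sorted (0.29% of events for chase, 0.01% for pulse) and run on the 10x Genomics 3′ v3.1 assay. The series used 4 mice, and each group is 1 library, so every chase and pulse value below compares 2 libraries, with no replicate, no test and no way to tell harvest time from mouse, sort or library preparation.

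The Cre of this line is meant for stromal cells, not macrophages. The Cd5l-low macrophages carried 274 CPM of tdTomato (the UMIs of a gene per 1000000 UMIs summed over the cells of a class) in chase and 295 CPM in pulse. Neutrophils of the same libraries carried 223 CPM in chase and 325 CPM in pulse, and CXCL12-abundant reticular (CAR) stromal cells 2010 CPM or more in both libraries. The reporter level of the macrophages was thus near that of neutrophils and far below that of the stroma. The libraries held 10046 barcodes and 82939659 UMIs for chase, and 10608 barcodes and 89009901 UMIs for pulse. They shared 52 barcode sequences, 0 of which belonged to a Cd5l-low macrophage.

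Tissue macrophages clear dying cells and debris, hold C1q, the first component of the classical complement cascade, and present peptides on MHC class II when the coactivator Ciita is expressed. In marrow, the macrophages of erythroblastic islands take up expelled nuclei and aged red cells, break down heme with Hmox1 and export iron through ferroportin (Slc40a1); they are marked by Spic, Cd5l and Vcam1. Other marrow macrophages are replaced from circulating monocytes, which enter tissue through the chemokine receptor Ccr2. Ccl8 and Ccl12 are chemokines that attract monocytes and T cells, Ms4a7 is a tetraspan membrane protein of mature macrophages, and Cx3cr1 is the fractalkine receptor.

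The working label of these cells names antigen presentation, C1q and Ccl8. C1qb and H2-Eb1 belong to the rule and cannot check it. Ms4a7 stood at 659 CPM in chase (95% interval 633 to 686) and 603 CPM in pulse (573 to 634). Cx3cr1 stood at 550 CPM in chase (526 to 574) and 746 CPM in pulse (712 to 780). Ccl8 stood at 466 CPM in chase (444 to 489) and 366 CPM in pulse (342 to 390). These exact Poisson intervals, like all intervals below, cover counting error only. Ly6c2 F13a1 monocytes of the same libraries carried 1.17 CPM of Ccl8 in chase and 0.691 CPM in pulse. The smallest ratio to this class over the 3 genes was 12.6, for Cx3cr1 in pulse, so all 3 set the Cd5l-low macrophages apart from it. The class, called monocytes below, required Ly6c2 and F13a1, so monocytes low in Ly6c2 were not compared. Many of its cells had a UMI of the proliferation marker Mki67, with shares given below. Ccl8 and Ms4a7, however, were no marker of the Cd5l-low cells among macrophages. Iron-recycling macrophages (the same C1q and Cxcl12 limits with at least 3 UMIs of Cd5l, Fcna and Spic) carried 476 CPM of Ccl8 in chase and 255 CPM in pulse, which gave ratios of Cd5l-low over iron-recycling of 0.98 and 1.43. For Ms4a7 the ratios were 0.97 in chase and 1.08 in pulse. Cx3cr1 stood higher than in iron-recycling macrophages, which carried 393 CPM in chase and 392 CPM in pulse, with ratios of 1.4 (1.32 to 1.48) and 1.9 (1.79 to 2.02), past 1.5-fold in pulse alone; in low-marker cells the ratios were 1.53 and 1.82. The label therefore holds for C1q and MHC class II by construction, and iron-recycling macrophages carried both as well. Per 10000 UMIs, the median of the 3 C1q genes was 84.8 in chase and 99.2 in pulse, against 112.9 and 108.7 in iron-recycling macrophages. The median of the 3 MHC class II genes was 213.7 and 151.5, against 204.4 and 31.3. Ccl8 was carried by a minority of the cells and equally by iron-recycling macrophages in chase. The cells are called Cd5l-low macrophages here.

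**Figure D1:**
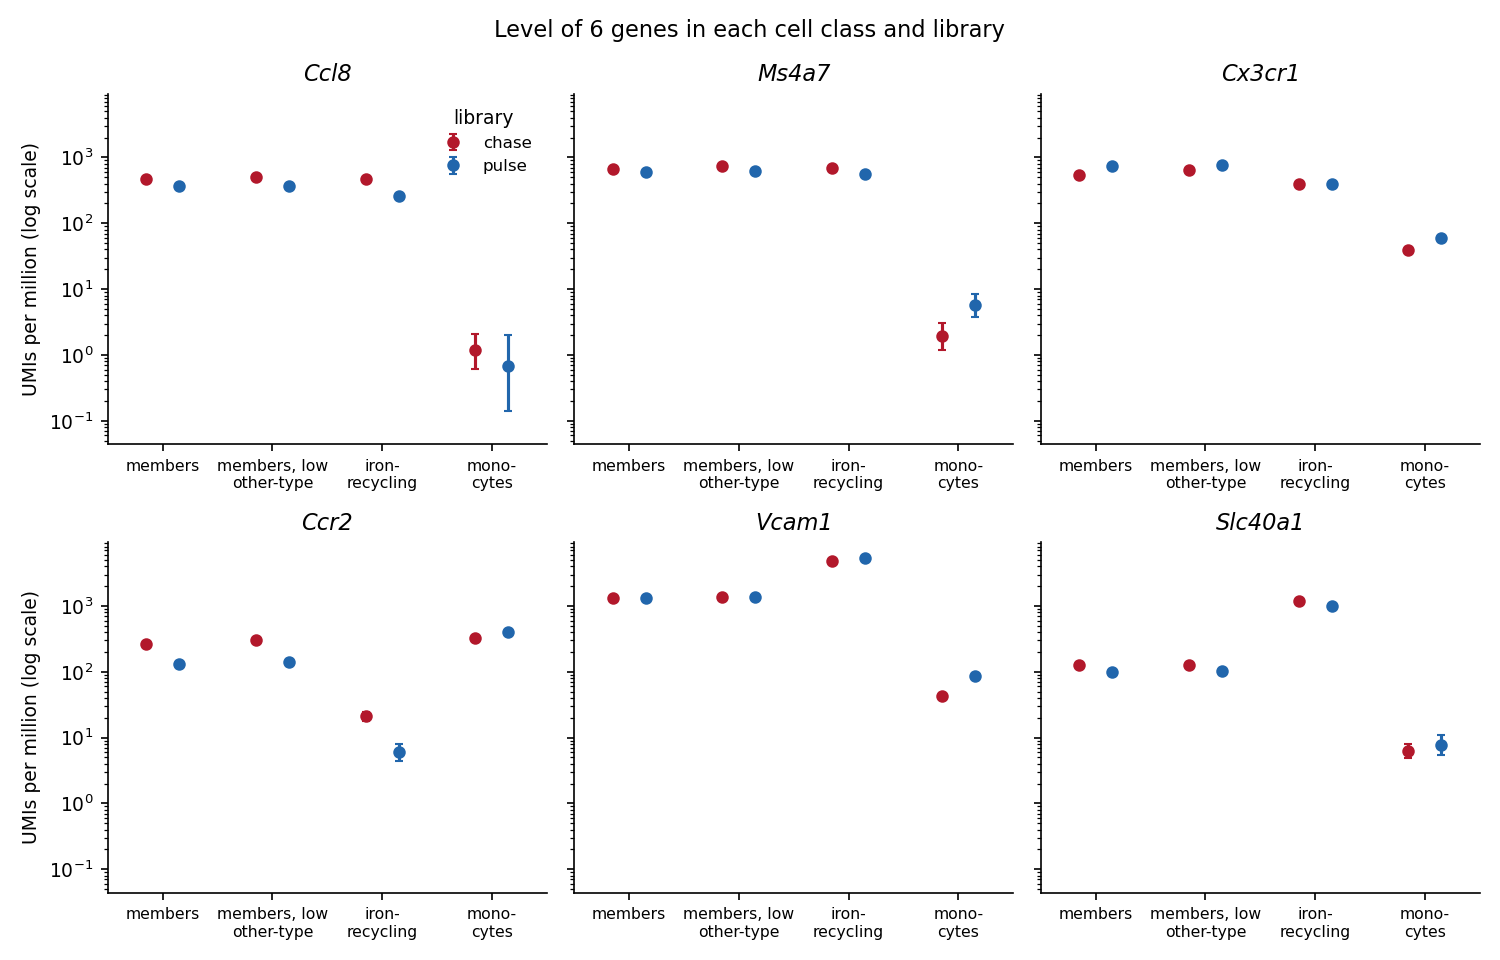
Level of 6 genes, in CPM on a log axis, in all Cd5l-low macrophages ("members"), those with under 1% of UMIs from markers of other cell types, iron-recycling macrophages and monocytes, chase (red) left of pulse (blue); points are sums over cells and bars exact Poisson 95% intervals. Ccl8 and Ms4a7 sit at like heights in both macrophage classes, Ccr2 is high in Cd5l-low macrophages and monocytes, and Vcam1 and Slc40a1 are highest in iron-recycling macrophages.

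Cd5l-low macrophages made up 6.16% of kept cells in chase (exact binomial interval 5.65 to 6.69%) and 3.56% in pulse (3.19 to 3.95%), a ratio of 1.73 (1.51 to 1.99). Part of this came with markers of other cell types. In chase, 184 of the 520 cells took 1% or more of their UMIs from 62 marker genes of neutrophils, B and plasma cells, osteoblasts, erythroid cells and megakaryocytes, and T and NK cells; in pulse, 25 of 334 did. Those cells had a median of 2190 UMIs in chase and 5581 UMIs in pulse, and took a median of 7.48% of their UMIs in chase and 2.66% in pulse from the other-type genes. Without them, 336 cells remained in chase (3.98% of kept cells) and 309 in pulse (3.29%), a ratio of 1.21 (1.03 to 1.42). These 645 cells, a subset set up after the values had been seen, are called low-marker cells below, and results are given for them beside all Cd5l-low macrophages.

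Across all Cd5l-low macrophages, summed neutrophil markers stood at 6291 CPM in chase and 6581 CPM in pulse, osteoblast markers at 6883 CPM in chase and 2514 CPM in pulse, and B and plasma cell markers at 2484 CPM in chase and 559 CPM in pulse. In the low-marker cells the same 3 sums were 613 CPM, 618 CPM and 667 CPM in chase, and 690 CPM, 1261 CPM and 376 CPM in pulse. All 14 neutrophil and all 10 osteoblast markers had at least 1 UMI among the Cd5l-low macrophages of each library, so no defining marker of those types was at 0. Whether these UMIs came from free RNA, attached cells or doublets was not tested.

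The limits of the rule cut through gradients. Cells with 0 UMIs of Cd5l, Fcna and Spic (337 in chase, 220 in pulse) and with 1 UMI (183 in chase, 114 in pulse) were inside, and those with 2 UMIs (100 in chase, 94 in pulse) or 3 UMIs (60 in chase, 61 in pulse) outside. Vcam1, which the rule did not use, stood at 1078, 1728, 2069 and 2521 CPM over these 4 steps in chase, and at 1088, 1709, 2093 and 3170 CPM in pulse. The MHC class II limit excluded few cells, 6 in chase and 20 in pulse, so nearly every C1q cell low in Cd5l passed it. Between 80 and 100 Cxcl12 UMIs per 10000 there were 33 cells inside in chase and 6 in pulse.

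The Cd5l-low macrophages were then set beside the iron-recycling macrophages within each library. The classes were cut from the same counts, so the values describe them and test nothing, and the 10 genes of the rule are left out. A gene was described with at least 50 UMIs over both sums in each library, and counted as past the limit where it differed by at least 1.5-fold the same way in both libraries with both intervals leaving out a ratio of 1. Of 9573 genes described, 378 (3.95%) were higher and 640 (6.69%) lower in Cd5l-low macrophages; among low-marker cells of both classes the counts were 359 (3.94%) and 605 (6.64%) of 9114, and 291 and 546 genes were past the limit in both versions.

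Genes of iron and heme handling, the trait on whose markers Cd5l, Fcna and Spic the classes were cut, were lower in Cd5l-low macrophages. Of 18 described genes of iron and heme recycling, 13 were lower in Cd5l-low macrophages and 0 higher, with a median log2 ratio of -1.05 in chase and -1.13 in pulse, where all described genes had medians of -0.07 and -0.03. Slc40a1, the iron exporter ferroportin, stood at 129 CPM in Cd5l-low against 1178 CPM in iron-recycling macrophages of the chase library, and at 98.9 CPM against 1010 CPM in pulse. Hmox1, which opens the heme ring, stood at 202 against 1487 CPM in chase and 238 against 1786 CPM in pulse. Both genes were thus several-fold lower, with ratios of 0.109 and 0.136 in chase and 0.098 and 0.133 in pulse. Vcam1, the adhesion molecule of island macrophages, stood at 1318 against 4903 CPM in chase and 1320 against 5316 CPM in pulse. Cd163, the hemoglobin scavenger receptor, had ratios of 0.181 in chase and 0.187 in pulse. Beside this list, summed erythroid and megakaryocyte markers stood at 1955 CPM in Cd5l-low against 4870 CPM in iron-recycling macrophages of the chase library, and at 1290 against 7162 CPM in pulse; their part in the result was not tested.

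Receptors that bind dying cells followed in part. Of 19 apoptotic clearance genes, 6 were lower and 2 higher. Mertk, a receptor tyrosine kinase that engulfs apoptotic cells, stood at 184 against 511 CPM in chase and 155 against 473 CPM in pulse. Its relative Axl had ratios of 0.416 in chase and 0.431 in pulse, while Stab1, a scavenger receptor, was higher in Cd5l-low macrophages, with ratios of 1.54 and 1.73. Of 21 lysosome and lipid genes, 10 were lower and 0 higher, among them the protease genes Ctsd (ratios 0.286 in chase and 0.303 in pulse) and Ctsb (0.466 and 0.488). Among 27 transcription factors 9 were lower and 3 higher. Pparg, the lipid-sensing nuclear receptor, had ratios of 0.295 in chase and 0.291 in pulse. Runx3, a Runt-domain factor, was higher, at 87.3 against 15.6 CPM in chase and 71.9 against 12.2 CPM in pulse. The rest of the lowest ranks were Itgad, an integrin of splenic red pulp macrophages (4.15 against 102 CPM in chase, 7.15 against 163 CPM in pulse), Kcna2, Prnp, Paqr9, Arap2, Ccr3, Epb41l3, Serpinb6a and Kcnj10, with ratios between 0.0383 and 0.223.

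Several receptor and adhesion genes were higher in Cd5l-low macrophages. Ccr2 stood at 267 against 21.2 CPM in chase and 129 against 6.04 CPM in pulse, ratios of 12.6 and 21.4. Monocytes carried 324 CPM of Ccr2 in chase and 397 CPM in pulse, so the Cd5l-low level was close to the monocyte level in chase and below it in pulse. Beside Ccr2, 7 of 13 described monocyte markers were higher and 1 lower (7 and 1 of 11 in low-marker cells), with sums of 1910 against 604 CPM in chase and 1721 against 692 CPM in pulse. Neutrophil markers also stood higher, 8 of 12 with 0 lower, with sums of 6291 against 2482 CPM in chase and 6581 against 4194 CPM in pulse, and are not compared in low-marker cells, which they were used to choose. The part of either list in these results was not tested. Gpr183, the oxysterol receptor that guides leukocytes within tissue, stood at 55.3 against 4.29 CPM in chase and 74.7 against 4.86 CPM in pulse. The integrin gene Itgam had ratios of 3.62 in chase and 4.25 in pulse, and Itgax, which encodes CD11c, 2.68 in both. Mgl2, a lectin gene of dermal dendritic cells and some macrophages, stood at 82.9 against 11.1 CPM in chase and 211 against 15.4 CPM in pulse. Of 8 described dendritic cell markers, Mgl2 among them, 4 were higher in Cd5l-low macrophages and 0 lower (2 of 7 in low-marker cells), with sums of 768 against 666 CPM in chase and 1197 against 759 CPM in pulse. The dendritic markers Flt3 and Zbtb46 stood at 6.35 CPM or less in Cd5l-low macrophages of either library. The other top ranks were the actin and signalling genes Lat2, S100a10, Lsp1, Coro1a, Capg, Traf1, Sema4d and Stap1, with ratios of 3.47 to 8.3. Set against monocytes, S100a10, Lsp1, Coro1a and Capg had ratios of 0.162 to 0.501, and Lat2 of 1.09 in chase and 0.852 in pulse. Traf1, Sema4d and Stap1 were higher than in monocytes, with ratios of 1.21 to 30.

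Of 14 CC and CXC chemokines, 7 were higher in Cd5l-low macrophages and 0 lower. Ccl12 stood at 179 against 68.2 CPM in chase and 158 against 65.2 CPM in pulse. Ccl9 had ratios of 4.12 in chase and 3.1 in pulse, and Ccl5, a chemokine for T cells, 3.98 and 9.66. Cxcl16, made as a membrane-bound chemokine, stood at 420 against 237 CPM in chase and 510 against 264 CPM in pulse. Ccl2, Ccl7 and Ccl8, neighbours of Ccl12 on chromosome 11, did not pass the limit, with ratios between 0.98 and 1.47. Of 21 inflammatory genes, 8 were higher and 3 lower: Il1b stood at 1315 against 616 CPM in chase and 519 against 186 CPM in pulse, whereas Il18 and Il1a, also of the interleukin 1 family, had ratios of 0.236 to 0.371. Of 28 cell cycle genes 9 were higher and 0 lower, among them Stmn1 (ratios 2.15 in chase and 2.33 in pulse) and Top2a (2.21 and 1.96).

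**Figure D2:**
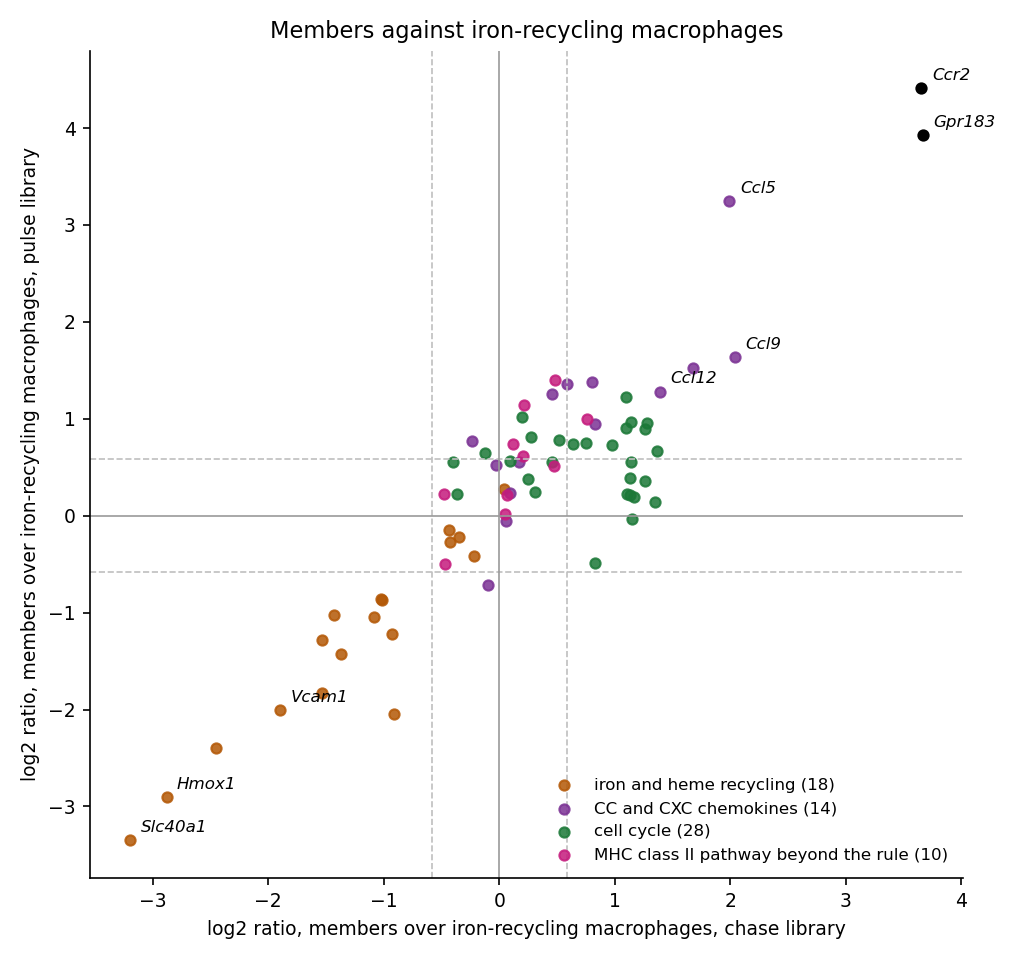
Log2 ratio of Cd5l-low ("members") over iron-recycling macrophages, chase library on the horizontal and pulse library on the vertical axis, for 4 gene lists and for Ccr2 and Gpr183 (black); dashed lines mark 1.5-fold. Iron and heme genes reach the lower left corner, chemokines and cell cycle genes lie mostly right of 0, and Ccr2 and Gpr183 stand alone at the upper right.

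Ccl8 and Ccl12 lie next to each other on chromosome 11 (Ccl12 at 82101845-82103400, Ccl8 at 82115185-82116799, both on the plus strand). Their upstream sequences are shown because the 2 genes behaved differently between the macrophage classes. The 150 bases before each start, from RefSeq on GRCm38.p6, share the run GGAAATCA (capitals), which begins 128 bases before either start; the run was picked after the sequences had been compared. The sequences also share other runs of the same length, which are not marked. Ccl12 is at chr11:82101695-82101844 and Ccl8 at chr11:82115035-82115184.
Ccl12: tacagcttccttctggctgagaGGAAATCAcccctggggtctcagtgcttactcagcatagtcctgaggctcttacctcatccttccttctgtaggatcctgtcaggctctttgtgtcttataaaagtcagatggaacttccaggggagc
Ccl8: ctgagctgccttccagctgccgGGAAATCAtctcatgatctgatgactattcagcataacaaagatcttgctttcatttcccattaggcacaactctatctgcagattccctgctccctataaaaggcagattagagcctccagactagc
The letters GGAAATCA occurred on either strand in 187 of 32851 RefSeq promoter windows of the same length (0.569%). A match of letters describes the sequence and is no evidence of binding.

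Set beside the monocytes of the same library, 1962 of 8867 described genes (22.1%) were higher and 1544 (17.4%) lower in Cd5l-low macrophages in both libraries. Of the 17 genes of the tissue-resident and perivascular macrophage list, 11 were described and all 11 were higher, with Mrc1, the mannose receptor, at 669 against 7.33 CPM in chase and 738 against 9.44 CPM in pulse. The highest ranks were Ccl12, Ccl8, C3ar1, which encodes the receptor for the complement fragment C3a, Hpgds, a prostaglandin D synthase, Cxcl16 and Mertk. Cell cycle genes ran the other way, with 22 of 28 lower than in monocytes, including Top2a at 144 against 593 CPM in chase and 202 against 493 CPM in pulse. The lowest ranks were Gria3, Stk26, the granule protease gene Ctsg, F10, Ms4a3, a marker of granulocyte and monocyte progenitors, and Hist1h3e. C3ar1 was higher in Cd5l-low macrophages than in either class, with ratios of 2.19 in chase and 2.56 in pulse over iron-recycling macrophages.

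The cells were not alike. After each cell had been thinned to 2000 UMIs, which left out 92 shallower cells in chase and 26 in pulse, a Ccl8 UMI was found in 27.3% of 428 cells in chase (23.2 to 31.8%) and in 24% of 308 cells in pulse (19.4 to 29.2%). Unthinned, the shares were 37.3% and 38%. Neutrophils, which should lack Ccl8, showed a UMI in 0.403% of cells in chase and 0.88% in pulse, with median depths of 10404.5 and 8824.5 UMIs before thinning, against 6115 and 6534.5 UMIs in the Cd5l-low macrophages. Ccl8 was thus above the neutrophil level but in a minority of cells, and it was concentrated. The 10% of cells with the most Ccl8 held 81.7% of its UMIs in chase and 73% in pulse, with up to 102 UMIs in 1 chase cell and 76 in 1 pulse cell. Iron-recycling macrophages showed the same pattern. After thinning, 26.6% of them in chase and 16.9% in pulse had a Ccl8 UMI. Their top 10% of cells held 76.7% and 83% of its UMIs. Among Cd5l-low macrophages, the 10% of cells with the most Ms4a7 held 38.2% of the Ms4a7 UMIs in chase and 32.3% in pulse.

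Ms4a7 and Cx3cr1 were broader. A Ms4a7 UMI was found in 62.4% of thinned cells in chase and 63% in pulse, against 0.202% and 0.88% of neutrophils. Iron-recycling macrophages had one in 65.7% and 61.6%. A Cx3cr1 UMI was found in 53.3% in chase and 70.5% in pulse, and among low-marker cells in 67.2% and 71.7%, against 43.4% and 38.2% of iron-recycling macrophages. Mrc1 was found in 58.4% in chase and 68.2% in pulse, and Vcam1 in 70.8% and 67.9%. Neutrophils had Mrc1 in 2.42% and 1.32% and Vcam1 in 17.1% and 17%. Both genes were found in more of the iron-recycling macrophages, Mrc1 in 88.9% and 90.5% and Vcam1 in 97.3% and 98%. Ccr2 was found in 26.9% in chase and 16.2% in pulse, where iron-recycling macrophages reached 3.03% and 0.696% and neutrophils 0.806% and 1.03%. Itgax was found in 12.1% in chase and 5.19% in pulse, Folr2 in 2.57% and 4.55%, and Cd163 in 2.1% and 2.27%. In iron-recycling macrophages the shares were 6.07% and 4.06% for Itgax, 3.79% and 3.36% for Folr2, and 9.41% and 10.6% for Cd163. The proliferation marker Mki67 was found in 10.3% of Cd5l-low macrophages in chase and 12% in pulse. Low-marker cells had it in 8.6% and 11.7%, iron-recycling macrophages in 3.64% and 7.31%, and CAR cells in 1.01% and 1.19%. Neutrophils reached 30.4% and 23.8%, so they give no background level for this gene. The Ly6c2 F13a1 monocytes had an Mki67 UMI in 43.8% of cells in chase and 37.7% in pulse. What part of these UMIs came from other cells was not tested. Lyve1, the hyaluronan receptor of perivascular macrophages, was found in 0 of 428 cells in chase, which allows a share of up to 0.701%, and in 0 of 308 in pulse, which allows up to 0.974%. These limits, set at 3 cells, hold for cells with a UMI at this depth and not for cells that express the gene.

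Low-marker cells with and without a Ccl8 UMI after thinning to 2000 UMIs were set side by side. In chase there were 82 with and 232 without, in pulse 70 with and 220 without. Levels below are from full counts, where cells without one still carried 37.7 CPM of Ccl8 in chase and 68.9 CPM in pulse. Genes of resident macrophages, and part of the iron and heme recycling list, were higher with Ccl8. Of the tissue-resident list, 10 of 11 described genes were higher in chase and 9 of 12 in pulse, where 9.64% and 6.77% of all described genes were higher and 8.7% and 4.44% lower. Of the iron and heme recycling list, 6 of 16 described genes were higher in chase and 9 of 16 in pulse, with 0 lower. Folr2, a folate receptor of resident macrophages, stood at 46 CPM in cells with against 4.48 CPM in cells without Ccl8 in chase, and at 84 against 14.2 CPM in pulse. Stab1 had ratios of 2.77 in chase (2.42 to 3.17) and 2.86 in pulse (2.5 to 3.26). Mrc1 stood at 1321 against 562 CPM in chase and at 1182 against 635 CPM in pulse, and Vcam1, Slc40a1, Selenop and Ccl7 were also past the limit in both libraries, with ratios of 1.63 to 3.4.

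Ccr2 went the other way, at 69.7 CPM with against 386 CPM without Ccl8 in chase and 27.4 against 174 CPM in pulse. Il1b had ratios of 0.471 in chase and 0.433 in pulse, and Tgfbi, which encodes a secreted matrix protein, 0.454 and 0.413. MHC class II and C1q, the genes of the rule, differed little: H2-Eb1 had ratios of 1.13 and 0.858 and C1qb of 1.24 and 1.11. The libraries disagreed on proliferation. In chase 23 of 24 described cell cycle genes were lower with Ccl8, with Top2a at 20.9 against 183 CPM, whereas in pulse 3 of 22 were lower and 1 higher, with Top2a at 213 against 214 CPM. Plac8, a monocyte gene, likewise had a ratio of 0.145 (0.0822 to 0.24) in chase and 1.36 (0.987 to 1.85) in pulse.

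Ccl8 and Ccr2 UMIs rarely shared a cell at the thinned depth of 2000 UMIs. Both had a UMI in 6 of 314 low-marker cells in chase (1.91%, 0.704 to 4.11%), against 8.48% for the 2 single shares multiplied, and in 1 of 290 in pulse (0.345%, 0.00873 to 1.91%), against 4.08% for the shares multiplied. A split by a Ccr2 UMI in the thinned cells, made after that was seen, gave 102 cells with and 212 without in chase. In pulse it gave 49 with and 241 without. In full counts, cells without one still carried 88.3 CPM of Ccr2 in chase and 29.4 CPM in pulse. Of the tissue-resident list, 10 of 11 genes were lower with Ccr2 in chase and 12 of 12 in pulse, where 8.52% and 13.5% of all described genes were lower and 2.88% in each library higher. Of the iron and heme recycling list, 8 of 16 described genes were lower in chase and 9 of 16 in pulse, with 0 higher. Slc40a1 stood at 15.8 CPM with against 177 CPM without Ccr2 in chase, and at 17.8 against 115 CPM in pulse. Vcam1 had ratios of 0.265 in chase and 0.212 in pulse and Ccl8 of 0.159 and 0.0286. Higher with Ccr2 were 7 of 11 described monocyte markers in chase and 8 of 10 in pulse, among them Plac8 (ratios 2.85 and 7.16). Cd74, the MHC class II invariant chain, was past the limit in pulse, with a ratio of 1.55, and stood at 1.07 in chase. In both libraries, cells with a Ccr2 UMI after thinning were thus higher in monocyte markers than cells without one. They were lower in resident macrophage genes and in part of the iron and heme genes.

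**Figure D3:**
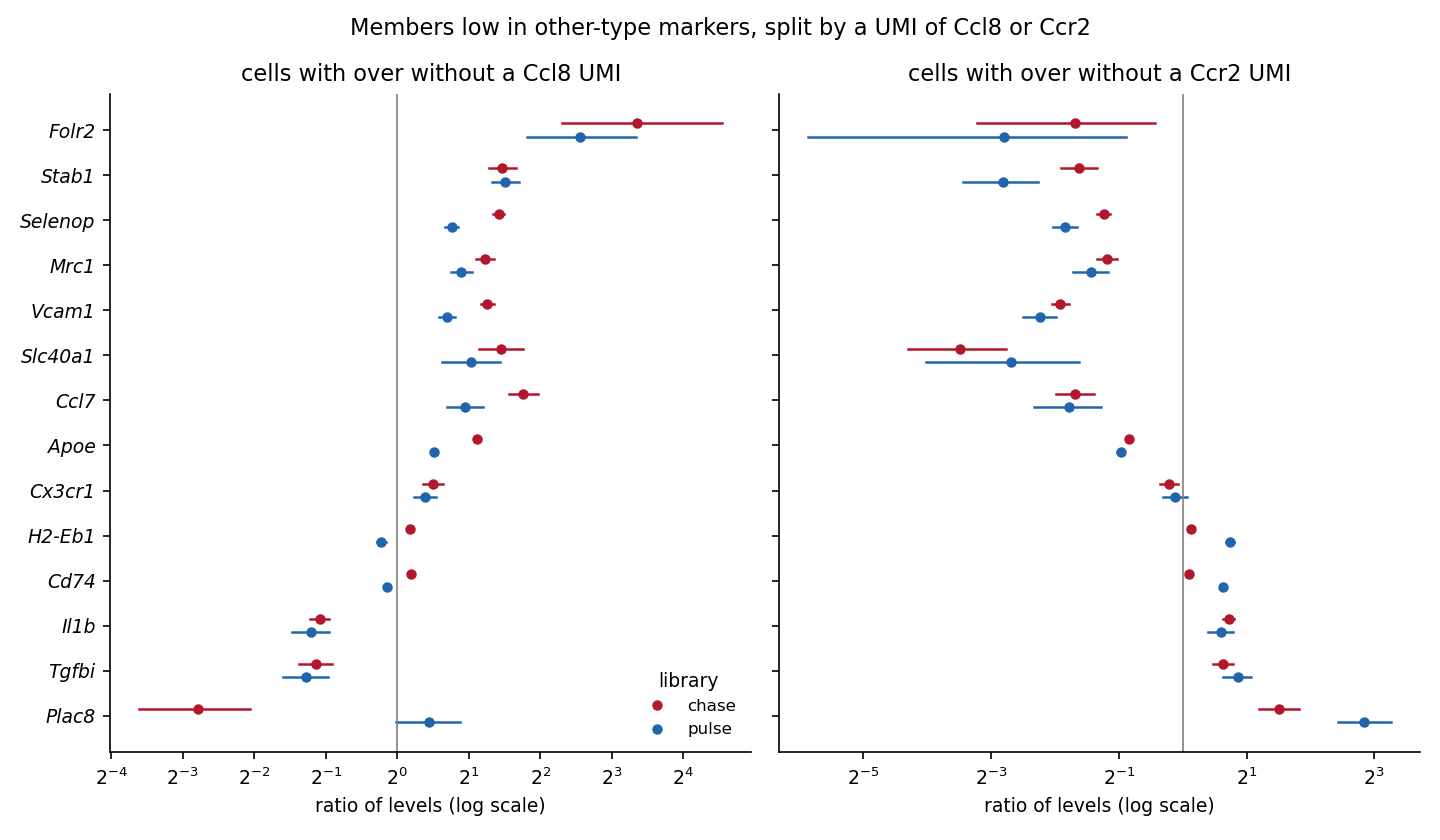
Ratio of summed levels (log axis) in low-marker cells with over without a Ccl8 UMI (left) and with over without a Ccr2 UMI (right), chase (red) above pulse (blue), bars exact 95% intervals, for 14 genes. The UMI of the split was sought after thinning to 2000 UMIs, and levels are from full counts. All genes from Folr2 to Ccl7 lie right of 1 in the Ccl8 panel and left of 1 in the Ccr2 panel. Il1b and Tgfbi do the opposite, and Plac8 differs between the libraries in the Ccl8 panel. Vcam1 and Slc40a1 belong to the iron and heme list, and Ccl7 is a chemokine gene.

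Chase was compared with pulse in sums over all Cd5l-low macrophages of each library. Of 8683 genes described, 353 (4.07%) were at least 1.5-fold higher and 669 (7.7%) lower in chase with an interval that left out 1; in low-marker cells the counts were 313 (3.88%) and 801 (9.92%) of 8072, and 224 and 506 genes were past the limit in both versions. The median log2 ratio of all described genes was -0.11, and -0.12 in low-marker cells. The label genes did not pass: the ratio was 1.27 (1.18 to 1.38) for Ccl8, 1.09 (1.03 to 1.17) for Ms4a7 and 0.737 (0.692 to 0.786) for Cx3cr1.

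The MHC class II pathway stood higher in chase. Of 10 described pathway genes outside the rule, 5 were higher and 0 lower, in all cells and in low-marker cells alike. Ciita, the coactivator without which class II genes are silent, stood at 142 CPM in chase against 56.8 CPM in pulse, a ratio of 2.5 (2.07 to 3.03). Cd74 stood at 17724 CPM in chase against 11601 CPM in pulse, and the peptide-loading genes H2-DMa and H2-DMb1 at 544 against 322 CPM and 491 against 278 CPM. The protease and reductase genes that prepare peptides did not follow, with ratios of 1.1 for Ctss, 0.777 for Lgmn and 0.721 for Ifi30. The 3 genes of the rule stood at 9141, 7293 and 7931 CPM for H2-Aa, H2-Ab1 and H2-Eb1 in chase, and at 6477, 4722 and 5277 CPM in pulse. In iron-recycling macrophages, which no class II limit selected, the chase over pulse ratio was 4.72 for Ciita and 2.91 for Cd74; whether it differed between the classes was not tested.

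Promoters of 3 class II genes are shown because these genes share a known control element, the Y box, which is bound by the factor NF-Y. The 150 bases before the start, from RefSeq on GRCm38.p6, each held 1 match to TGATTGG (capitals) in a search of both strands, beginning 50 bases before the start of H2-Aa (chr17:34287824-34287973, minus strand), 61 before that of H2-Eb1 (chr17:34305717-34305866, plus strand) and 63 before that of H2-DMb1 (chr17:34153041-34153190, plus strand).
H2-Aa: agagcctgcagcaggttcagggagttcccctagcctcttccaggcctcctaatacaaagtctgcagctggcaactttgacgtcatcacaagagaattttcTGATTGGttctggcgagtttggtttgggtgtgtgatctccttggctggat
H2-Eb1: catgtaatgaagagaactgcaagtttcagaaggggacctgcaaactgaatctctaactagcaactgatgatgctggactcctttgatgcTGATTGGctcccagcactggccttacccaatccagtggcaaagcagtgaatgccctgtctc
H2-DMb1: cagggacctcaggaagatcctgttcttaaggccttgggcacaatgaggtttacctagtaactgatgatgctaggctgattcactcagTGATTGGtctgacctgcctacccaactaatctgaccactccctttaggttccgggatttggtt
The same letters occurred in 1877 of 32851 windows (5.71%).

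Interferon-stimulated genes stood higher too, 12 of 28 described against 1 lower, with a median log2 ratio of 0.53; in low-marker cells it was 16 and 1 with a median of 0.62. Gbp2, a guanylate-binding protein gene induced by interferon gamma, stood at 104 CPM in chase against 29.4 CPM in pulse, a ratio of 3.54 (2.75 to 4.6). Cxcl9, a chemokine for Cxcr3 lymphocytes, stood at 342 CPM in chase against 116 CPM in pulse. Iron-recycling macrophages of the same libraries had ratios of 2.39 for Gbp2 and 2.74 for Cxcl9, so the difference was seen in both macrophage classes.

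Of 15 chemokines 6 were higher in chase and 0 lower, and of 21 inflammatory genes 8 were higher and 4 lower. Il1b stood at 1315 CPM in chase against 519 CPM in pulse, a ratio of 2.53 (2.38 to 2.7). Il10, the anti-inflammatory cytokine, stood at 74.6 against 25.4 CPM. Ccl3 and Ccl4, inflammatory chemokines of macrophages, had ratios of 2.12 and 2.08, and Ccl6 of 2.19, while Ccl2, Ccl7 and Ccl12 had ratios of 0.955 to 1.13. Fcgr4, an activating Fc receptor gene, stood at 206 against 75.4 CPM. Ccr2 stood at 267 CPM in chase against 129 CPM in pulse, a ratio of 2.06 (1.82 to 2.35), and 2.19 in low-marker cells. Itgax had a ratio of 2.54 and the costimulator Cd86 of 1.59. Each of these genes past the limit also passed it in low-marker cells. In iron-recycling macrophages the chase over pulse ratio was 3.79 for Fcgr4 and 2.38 for Il10. Il1b and Ccr2 levels of that class, given above, also stood higher in chase. Whether the ratios differed between the classes was not tested.

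Tissue-resident, cell cycle and heat shock genes stood lower in chase. Of 13 tissue-resident genes 5 were lower and 0 higher (6 and 0 in low-marker cells). Pf4, a chemokine of resident macrophages as well as platelets, stood at 484 CPM in chase against 1073 CPM in pulse, Folr2 at 13.3 against 27.4 CPM and Fcrls, an Fc receptor-like gene of microglia and tissue macrophages, at 25.4 against 87 CPM. Mgl2 and Clec10a, lectin genes of the dendritic cell list, had ratios of 0.393 and 0.481. Mrc1, by contrast, had a ratio of 0.907. Of 28 cell cycle genes 10 were lower and 1 higher (13 and 0 in low-marker cells), led by the replication helicase genes Mcm2, at 23.8 against 62.3 CPM, Mcm6 (0.504), Mcm3 (0.516) and Mcm5 (0.543), while the mitotic Mki67 and Top2a did not pass, at 0.795 and 0.712. Of 12 heat shock genes 4 were lower and 0 higher, including Hsph1 at 19.6 against 56 CPM. Fcrls and Hsph1 stood lower in chase in iron-recycling macrophages too, with ratios of 0.518 and 0.553.

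The lowest ranks included Cd55, a brake on complement, at 11.6 CPM in chase against 68.7 CPM in pulse, and Tfrc, the transferrin receptor, at 15.5 against 60 CPM. Spp1, which encodes osteopontin, stood at 210 against 631 CPM. The stromal matrix genes Cdh11, Col6a1, Col6a2, Col8a1, Fbn1, Olfml2b and Htra1 were also among the lowest, with ratios of 0.187 to 0.353. In iron-recycling macrophages the chase over pulse ratios were 0.258 to 0.515 for these matrix genes, 0.244 for Cd55 and 0.118 for Tfrc. CAR stromal cell markers summed to 6481 CPM in chase and 4622 CPM in pulse over all cells, and to 2720 and 3726 CPM in low-marker cells, where 11 of 14 described CAR markers were lower in chase; their part in these matrix genes was not tested.

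Some genes were higher in chase over all cells but not in low-marker cells. Col11a1, a collagen of bone and cartilage, stood at 216 CPM in chase against 51.6 CPM in pulse, a ratio of 4.18, and at 0.616 in low-marker cells. Dcn, the matrix proteoglycan decorin, had 3.3 in all cells and 0.54 in low-marker cells, Sparc 1.96 and 0.457, and Ctsg 2.98 and 0.782. Gbp2, Cxcl9, Iigp1 and Il10 from the same top 12 had ratios of 3.54, 2.96, 3.24 and 2.94 in all cells and 4.21, 3.64, 3.09 and 3.61 in low-marker cells.

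**Figure D4:**
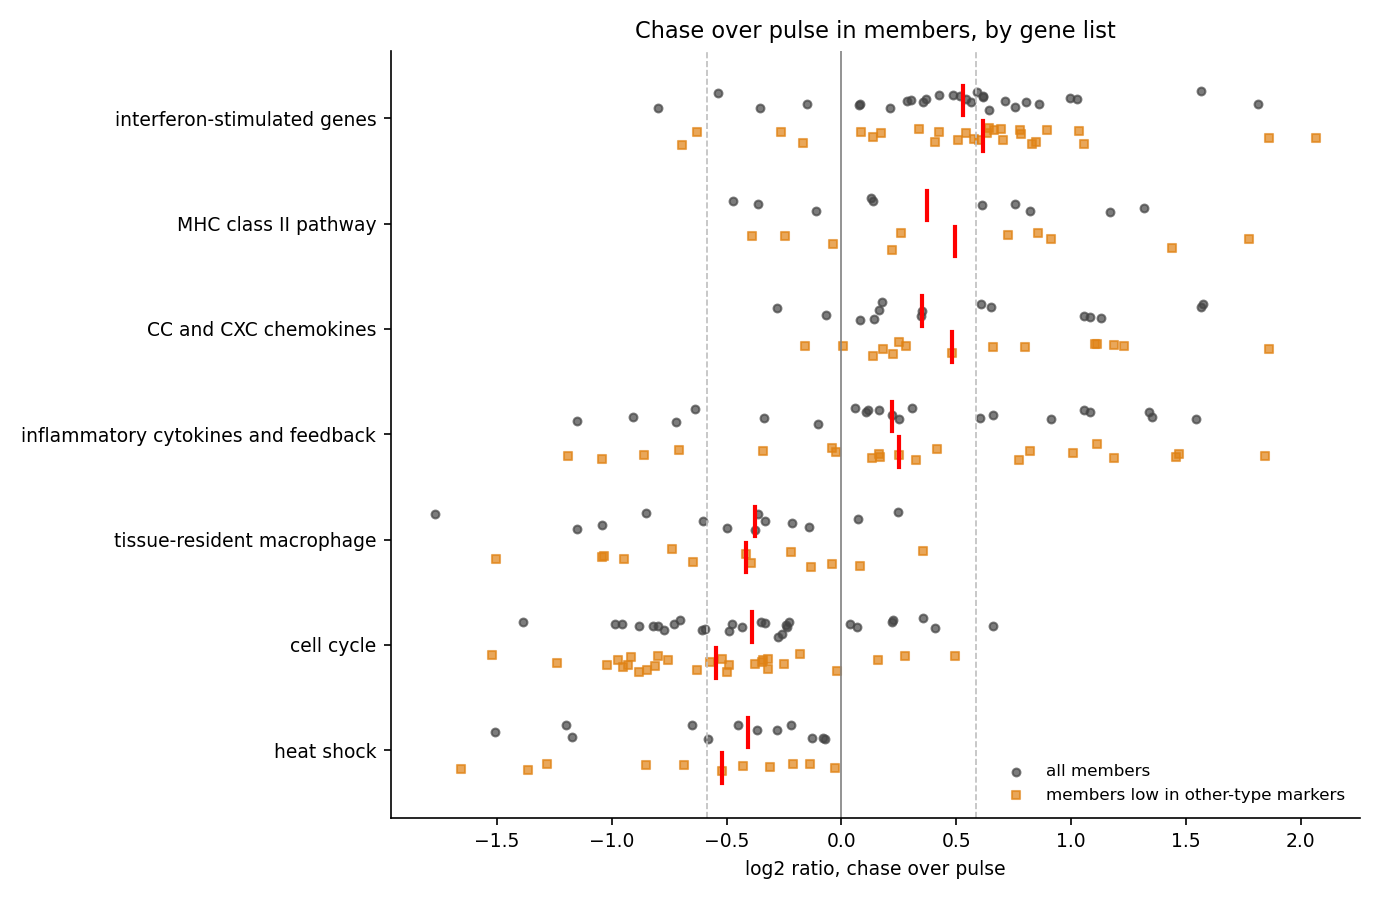
Log2 ratio of chase over pulse for the described genes of 7 lists, in all Cd5l-low macrophages (grey, upper line of each list) and in low-marker cells (orange, lower line); red bars are medians and dashed lines 1.5-fold. The medians of interferon-stimulated, MHC class II and chemokine genes lie right of 0 and those of tissue-resident, cell cycle and heat shock genes left of 0 in both sets.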

How the data were processed

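UMI counts per gene and barcode were used as the authors deposited them, raw and filtered to cells. Per the file headers they were made with Cell Ranger 6.0.2; the submitters' processing notes name Cell Ranger 2.1.1 and mm10. Counts were summed over the cells of a class and library and divided by their total (CPM). Ratios carry exact 95% intervals conditional on the summed count, log2 ratios a prior count of 0.5. Genes with at least 50 UMIs over both sums were described. Shares of cells were taken after thinning to 2000 UMIs. Monocytes had at least 2 UMIs each of Ly6c2 and F13a1, and, per 10000 UMIs, under 10 of C1q, under 100 of Cxcl12 and under 10 of Ngp, Ltf and Camp; neutrophils at least 100 S100a8 and S100a9 UMIs per 10000 with the same C1q and Cxcl12 limits; CAR cells at least 100 Cxcl12 UMIs per 10000, at most 1 Csf1r UMI and the same C1q limit. Scrublet (scanpy 1.11.5) marked 98 of 8445 chase cells (1.16%) and 5 of 9390 pulse cells (0.0532%), so it did not work in pulse; marked cells were kept, and leaving them out was an alternative.

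Genes were named by a rule: a set list, up to 4 genes per gene list with the largest ratios and at least 20 CPM, and the 12 highest and lowest per comparison (6 for monocytes) with at least 50 CPM. Other list genes named beside them were chosen after their values were seen. The cells and the gene lists were chosen with earlier results of these data known. The ratio method was tested on simulated Poisson counts, the model its intervals assume, so that test does not cover variation between cells. Python 3.11.15, numpy 2.4.6, scipy 1.17.1 and pandas 2.3.3 were used. Gene positions are from a GENCODE annotation, and promoters with their coordinates from RefSeq tables of GRCm38.p6. A few genes of the lists are not reported here.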

Additional observations from a re-analysis of the deposited data

Results flagged for a closer look

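6 genes had ratios past 1.5-fold in opposite directions in the 2 libraries; the difference between the libraries was not tested. Set against iron-recycling macrophages of the same library, Cd5l-low macrophages had a Col11a1 ratio of 3.315 in chase and 0.368 in pulse, a Dcn ratio of 2.175 in chase and 0.5947 in pulse, a Sparc ratio of 2.363 in chase and 0.4941 in pulse, and a ratio of 1.709 in chase and 0.5683 in pulse for Mt2, a metallothionein. Set against monocytes, the ratios were 8.423 in chase and 0.5252 in pulse for Col11a1, 4.436 in chase and 0.5354 in pulse for Sparc, 2.525 in chase and 0.6266 in pulse for the chemokine Ccl6, and 0.6014 in chase and 1.611 in pulse for the chaperone Hsph1. Among low-marker cells of both classes the iron-recycling comparison gave 0.813 and 0.736 for Col11a1, 0.834 and 1.09 for Sparc and 1.04 and 0.866 for Mt2.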

How the results depend on the processing

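No paired analysis was possible because each group is 1 library. The share ratio of chase over pulse (1.73) was 1.17 with Cxcl12 under 10 per 10000, 1.49 with the rule applied after thinning to 2000 UMIs (where 704 chase and 521 pulse cells met it, in place of 520 and 334, and 317 chase and 560 pulse cells counted as iron-recycling, in place of 676 and 891) and 1.21 in low-marker cells. Of the counts in chase against pulse, 669 lower genes became 405 with median-of-ratios size factors, 353 higher genes became 532 with a minimum of 1 UMI, and the mean of CPM per cell gave 743 higher and 1114 lower by size alone. CPM of label genes moved by more than counting error as follows. With Cd5l, Fcna and Spic at 0, Ms4a7 was 567.6 in pulse. With C1q at least 30 per 10000, chase and pulse stood at 517.6 and 396.7 for Ccl8, 738.2 and 660.7 for Ms4a7, and 614.5 and 828.4 for Cx3cr1. With Cxcl12 under 10, they stood at 738.5 and 638.9 for Ms4a7, 612.6 and 781.2 for Cx3cr1, and Ccl8 at 523.5 in chase. With the rule after thinning, they stood at 590.5 and 471.4 for Ccl8, and 739.5 and 657 for Ms4a7. As means per cell, chase gave 437.1 for Ccl8 and 573.7 for Ms4a7, and Cx3cr1 474.3 and 876.1. In low-marker cells, chase gave 512.9 for Ccl8 and 741.1 for Ms4a7, and Cx3cr1 634.9 and 781.8.

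Of the single-gene values, 2113 stayed within their interval, 572 moved beyond it and 16 changed direction; the most moved with the rule after thinning (132) and as means per cell (124). Chase over pulse, Ctsg became 0.916 with Cd5l, Fcna and Spic at 0, 0.83 with Cxcl12 under 10 and 0.782 in low-marker cells; Fabp4 became 0.884 after thinning, S100a10 1.05 as a mean per cell, and Col11a1 0.616 and Dcn 0.54 in low-marker cells. Against iron-recycling macrophages of the chase library, Cxcl12 under 10 gave 0.855 for Ctsg, 0.942 for Mt2 and 0.399 for Ms4a3, and low-marker cells gave 0.887 for Adipoq, 0.813 for Col11a1 and 0.909 for Dcn. In pulse, thinning gave 1.19 for Col11a1 and 2.14 for Dcn, and low-marker cells 1.87 for Dcn. The causes were not tested. The size of both macrophage classes depends on depth, since 1 UMI of Cd5l, Fcna or Spic is easier to miss in a shallow cell.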
